A study of Homo sapiens with 3 samples.

Results

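SLFN5, PXK, KLHDC7B, NIBAN1 and MOB3B are 5 genes picked out of 19775 on the arrays. They were taken as little-studied genes whose signal differed strongly from the control in colossolactone H-treated cells. Other genes differed as strongly and were not picked. They were found by platform gene symbol, and 18 single-gene probe sets of 54675 carry their names. No probe set in the annotation is shared between one of them and another gene. The values that chose them are their own differences from the control at 12 h and 24 h, so those differences are descriptions and support nothing further. Among the second-brightest probe sets, those just past 2-fold were at 1.06 on the log2 scale for KLHDC7B at 12 h and at -1.06 for MOB3B at 24 h, and just short of it was KLHDC7B at 24 h, at 0.88.

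The cells came from NCI-H1650, an established line of human lung adenocarcinoma, grown in RPMI-1640 with fetal calf serum. Of the 3 arrays, 1 held control cells, whose collection time and vehicle the labels do not state. The others held cells exposed to 40 μM colo H for 12 h and for 24 h, colo H being colossolactone H, a triterpenoid from a fungus. With 1 array a group there is no replicate spread, no p-value and no error, so every difference compares these particular arrays, and both treated arrays share the same control. RNA came from whole cultures, in which fewer cells of a type and less RNA per cell cannot be told apart.

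The proteins these genes encode have little in common. SLFN5 is a nuclear member of the Schlafen family, several human genes of which are known to be induced by type I interferon. PXK holds a phosphoinositide-binding PX domain beside a kinase-like domain and its mouse form is known to bind the Na,K-ATPase, while KLHDC7B is a kelch-repeat protein. NIBAN1, formerly FAM129A, is known as a protein induced by endoplasmic reticulum stress. MOB3B belongs to the MOB family of kinase adaptors, of which MOB1 proteins bind and activate the LATS and NDR kinases of the Hippo pathway and the MOB3 proteins do not.

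Promoter sequence, 250 bases before to 50 bases after the start of transcription, was held by the RefSeq table (GRCh38.p14) for 4 of the 5 genes, PXK, KLHDC7B, NIBAN1 and MOB3B. The pair printed here shows how unlike each other the promoters of 2 genes with similar differences were. Capitals in KLHDC7B mark the single match to any of 5 motifs searched on both strands, and PXK has none.
KLHDC7B, chr22:50545649-50545948, plus strand: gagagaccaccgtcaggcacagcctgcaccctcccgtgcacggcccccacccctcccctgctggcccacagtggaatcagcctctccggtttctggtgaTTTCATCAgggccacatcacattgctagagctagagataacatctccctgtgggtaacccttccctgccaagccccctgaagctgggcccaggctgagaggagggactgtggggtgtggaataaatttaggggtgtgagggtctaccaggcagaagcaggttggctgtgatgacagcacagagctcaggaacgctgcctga
PXK, chr3:58333056-58333355, plus strand: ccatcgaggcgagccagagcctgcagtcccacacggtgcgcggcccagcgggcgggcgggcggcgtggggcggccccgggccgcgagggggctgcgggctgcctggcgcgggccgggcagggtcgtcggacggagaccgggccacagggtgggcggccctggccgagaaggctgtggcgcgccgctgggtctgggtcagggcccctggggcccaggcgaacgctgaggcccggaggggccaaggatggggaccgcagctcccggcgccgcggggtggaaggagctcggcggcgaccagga
The PXK promoter was 80.0% G and C with 38 CpG dinucleotides, against 59.7% and 5 in KLHDC7B, 60.7% and 18 in NIBAN1 and 62.7% and 19 in MOB3B. The median over promoters of 10056 measured genes was 65.3% and 26 CpG. The match in KLHDC7B, TTTCATCA, reads on the opposite strand as the ATF4 and C/EBP composite motif TGATGNAA and begins 151 bases before the start. That motif was held by 1.82% of promoters of measured genes and 3.67% of all 27305. The antioxidant motif TGACNNNGC was held by 15.4% of promoters of measured genes, the interferon motif, GAAA, 2 bases of any kind and GAAA again, by 2.66%, the E2F motif TTTCNCGC by 4.90% and the reticulum stress motif, CCAAT, 9 bases of any kind and CCACG, by 0.139%. Over all 27305 promoters the shares of these 4 were 13.6%, 3.65%, 3.09% and 0.0806%. The search counted overlapping matches, and these 4 motifs were not found in any of the 4 windows.

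Signals are linear MAS5 units as deposited by the authors, whose mean after trimming 2% at each end was 500 on every array. A gene is given by its brightest single-gene probe set, signals under a floor of 61.4, the median over all values, were raised to it, and 12351 genes exceeded the floor on at least 1 array (measured genes). Differences are given as log2(treated/control) unless said otherwise, with the 12 h value before the 24 h one. For ACTB the signal at the 3' end over that at the 5' end was 4.95 in the control, 5.38 at 12 h and 6.55 after 24 h, and for GAPDH it lay between 1.21 and 1.25. The part of this in the results was not tested. Of 10 epithelial and lung adenocarcinoma markers, 9 exceeded the floor on at least 1 array, with EPCAM at 13033 in the control, 13754 after 12 h and 13538 after 24 h, while the lung lineage factor NKX2-1 was below it on every array. The 4 markers of this list with the largest mean difference over both times were lower, KRT19 at -0.54 and -0.60, SFTPB at -0.36 and -0.34, KRT7 at -0.19 and -0.24 and MUC1 at -0.08 and -0.22. NAPSA, an aspartic protease of lung epithelium, exceeded the floor at 24 h alone, at 74.9 units. Of 12 leukocyte and red cell markers on the arrays 4 were measured (CD79A, CSF1R, ITGAM and HBB), with a summed signal of 459 in the control, 487.5 after 12 h and 391.3 after 24 h, and PTPRC was below the floor throughout.

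All 5 genes were 2-fold or more from the control at both times, 4 of them higher and MOB3B lower, where 0.883% of measured genes were so at 12 h and 1.23% at 24 h. In the 2 directions the shares were 0.445% higher and 0.437% lower at 12 h, and 0.591% higher and 0.64% lower at 24 h. The genes were chosen for this, so nothing is read from the count. Of their 18 probe sets, 10 were 2-fold or more from the control at 12 h and 11 at 24 h, against 0.945% and 1.67% of 23715 measured single-gene probe sets. At 12 h 8 of them were higher and 2 lower (0.485% and 0.46% of all), and at 24 h 9 were higher and 2 lower (0.94% and 0.725%). Of the other probe sets, 2 lay at the floor on all arrays and the rest were higher for the 4 higher genes and lower for MOB3B. The plot of every probe set shows the separate traces.

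**Figure D1:**
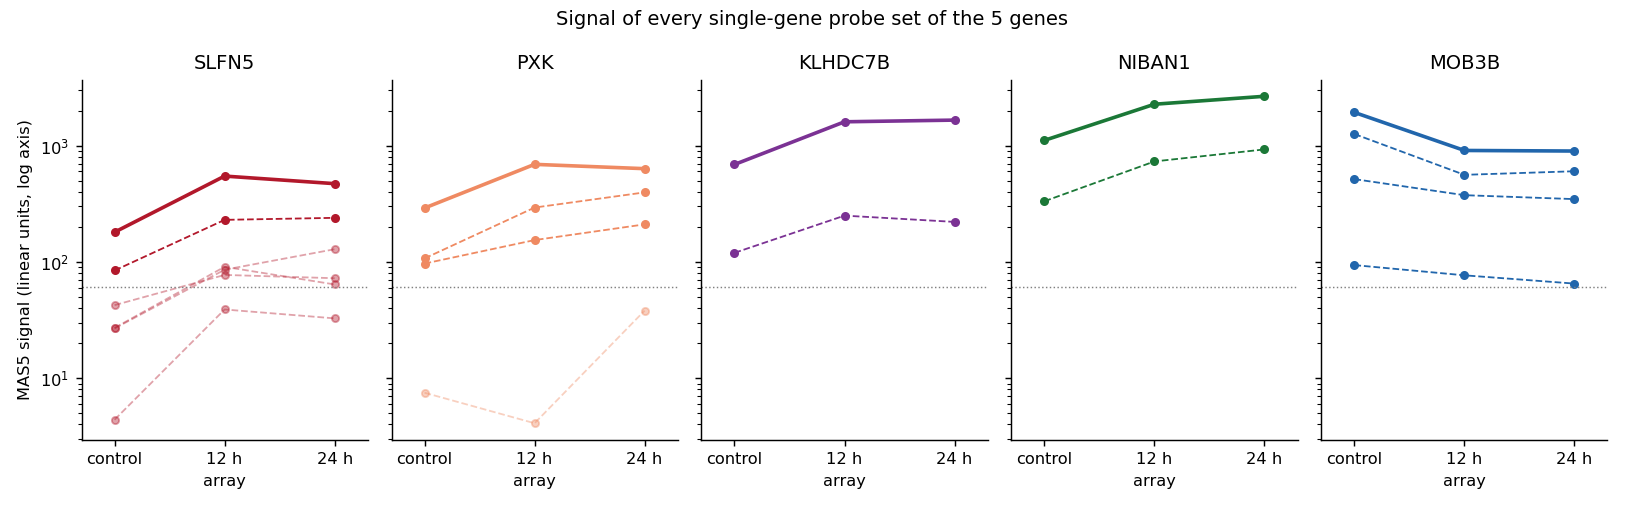
MAS5 signal (linear units on a log axis) of each of the 18 single-gene probe sets of SLFN5, PXK, KLHDC7B, NIBAN1 and MOB3B on the control, 12 h and 24 h arrays, 1 array each. The thick line is the brightest probe set of a gene, dashed lines are the others, pale ones lay at the floor of 61.4 (dotted) on at least 1 array, and all 4 MOB3B traces are lower at both times than in the control.

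SLFN5 (Entrez gene 162394) had 6 probe sets, the most of the 5 genes. The brightest, 238430_x_at, gave 180.2 units in the control, 547.2 after 12 h and 471 after 24 h. It was thus 3.04-fold higher at 12 h and 2.61-fold higher at 24 h, rank 4 and rank 13 among measured genes ordered by how much higher they were. Its name ends in _x_at, which Affymetrix gave to probe sets that may also bind unrelated transcripts. The transcript-specific 226725_at gave 84.4 in the control, 230.0 after 12 h and 239.4 after 24 h, or 2.73-fold and 2.84-fold higher. Both probe sets therefore had both treated arrays well above the control, though they put the treated arrays in opposite order.

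The fainter SLFN5 probe sets give bounds. 243999_at read 26.8 in the control, below the floor, then 85.7 at 12 h and 128.6 at 24 h, so it was at least 1.40-fold and at least 2.09-fold higher. 1557078_at, at 42.5, 77.3 and 72.4 from control to 24 h, was at least 1.26-fold and at least 1.18-fold higher. 230383_x_at read 27.1, 90.8 and 64.0, at least 1.48-fold and at least 1.04-fold higher, and 1553055_a_at stayed below the floor on all arrays. In all, 5 of 6 probe sets were higher at both times, 2 of them by 2-fold or more at 12 h and 3 at 24 h. As the median over probe sets, which holds the bounds, SLFN5 was at 0.56 at 12 h and 1.07 at 24 h.

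PXK (Entrez gene 54899) had 4 probe sets, of which 3 exceeded the floor on all arrays. The brightest, 225796_at, gave 290.6 in the control, 690.3 after 12 h and 633.8 after 24 h, differences of 1.25 and 1.12. 1552274_at gave 107.2, 293.4 and 396.2, and 1552275_s_at gave 96.8, 154.1 and 210.3. All 3 were higher at both times, by 0.67 to 1.45 at 12 h and 1.12 to 1.89 at 24 h. They differed in what followed, since the brightest was at -0.12 for 24 h against 12 h while the other 2 were at 0.43 and 0.45. The probe set 238223_at lay below the floor on every array, with 38.1 its highest reading.

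KLHDC7B (Entrez gene 113730) had a pair of transcript-specific probe sets. 236285_at gave 688.5 in the control, 1603.4 after 12 h and 1657.7 after 24 h, which is 2.33-fold and 2.41-fold higher. 1552639_at gave 119.7, 250.1 and 220.9, which is 2.09-fold and 1.85-fold higher. On each of them the treated arrays lay close together and apart from the control.

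NIBAN1 (Entrez gene 116496) was read by 2 probe sets, both of the _s_at kind that bind several transcripts, so none was transcript-specific. 217967_s_at gave 1110.2 in the control, 2270.1 after 12 h and 2656.9 after 24 h, which is 2.04-fold and 2.39-fold higher. 217966_s_at gave 332.5, 731.5 and 927.9, which is 2.20-fold and 2.79-fold higher. Both put the arrays in the order control, 12 h, 24 h from low to high. The step from 12 h to 24 h was 0.23 and 0.34 on the log2 scale.

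MOB3B (Entrez gene 79817) was lower, on each of 4 transcript-specific probe sets that all exceeded the floor. 226844_at gave 1930.4 in the control, 908.7 after 12 h and 898.5 after 24 h, which is 2.12-fold and 2.15-fold lower. 229568_at gave 1258.8, 560.8 and 602.2, which is 2.24-fold and 2.09-fold lower. The dimmer 219265_at, at 515.2, 374.9 and 346.8, and 1563521_at, at 93.9, 76.7 and 65.1, were lower by smaller amounts, at -0.46 and -0.29 at 12 h and -0.57 and -0.53 at 24 h. The direction was thus shared by all 4 and the 2-fold size by 2, and the median over probe sets was -0.77 at 12 h and -0.82 at 24 h.

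Fibroblast and endothelial markers were also lower on the treated arrays, 6 of 6 measured of 14, with a summed signal of 2425 in the control, 2040 after 12 h and 1671 after 24 h. Of all 12351 measured genes, 5977 were lower at 12 h and 6166 at 24 h. The collagens COL1A1 and COL3A1 were at -0.08 and -0.56 and at -0.43 and -0.58, FAP at -0.14 and -0.41, PECAM1 at -0.48 and -0.62 and TEK at -0.27 and -0.30, while ACTA2, at -0.24 at 12 h, was below the floor at 24 h. DCN, LUM, PDGFRB, VWF and CDH5 were below the floor on every array. The part of these markers in the MOB3B difference was not tested.

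How closely probe sets of a gene agree was set against all 5636 genes for which at least 2 probe sets exceeded the floor on every array. Among these, all probe sets differed from the control in 1 direction for 50.2% at 12 h and 49.6% at 24 h, and all 5 genes were among them at both times. A shared direction with at least 2 probe sets at 2-fold held for 12 genes at 12 h (0.213%) and 13 at 24 h (0.231%), including all 5 at 12 h and all but KLHDC7B at 24 h. The genes were chosen for large differences from the control, on which these counts rest, so they are given as description. The gap between the highest and lowest probe set of a gene had a median of 0.30 at 12 h over the 5636 genes. It was 0.11 for NIBAN1, 0.16 for KLHDC7B, 0.16 for SLFN5, 0.78 for PXK and 0.87 for MOB3B. At 24 h the median was 0.35, and the gap was 0.22 for NIBAN1, 0.38 for KLHDC7B, 0.12 for SLFN5, 0.77 for PXK and 0.57 for MOB3B. PXK and MOB3B had gaps above the median at both times and KLHDC7B at 24 h, while NIBAN1 and SLFN5 were below it at both. A gap of this kind can only widen as probe sets are added, and the median pools genes with different numbers of them. It rested on 2 probe sets for NIBAN1, KLHDC7B and SLFN5, 3 for PXK and 4 for MOB3B. The 2 of SLFN5 are part of its 6. The gaps therefore do not rank the 5 genes by agreement.

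The arrays at 24 h and 12 h were compared with each other for the same genes. None of the 5 differed 2-fold, where 0.324% of measured genes did, and none of their probe sets did, where 0.822% of measured single-gene probe sets did. The genes were chosen from their differences from the control at both times, and this step is the gap between those differences. With so few genes both counts are also near their shares, so nothing is read from them. NIBAN1 was at 0.23, KLHDC7B at 0.05, MOB3B at -0.02, PXK at -0.12 and SLFN5 at -0.22. Each lay within the central span of genes with a mean signal within 2-fold of its own, from the 5th to the 95th percentile, which was -0.30 to 0.26 over 3902 genes for NIBAN1 and -0.42 to 0.39 over 3480 genes for SLFN5. That span holds any real change of those genes as well as noise. The plot of all genes sets the 2 differences from the control against each other. No correlation between them is given, because both share the control array.

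**Figure D2:**
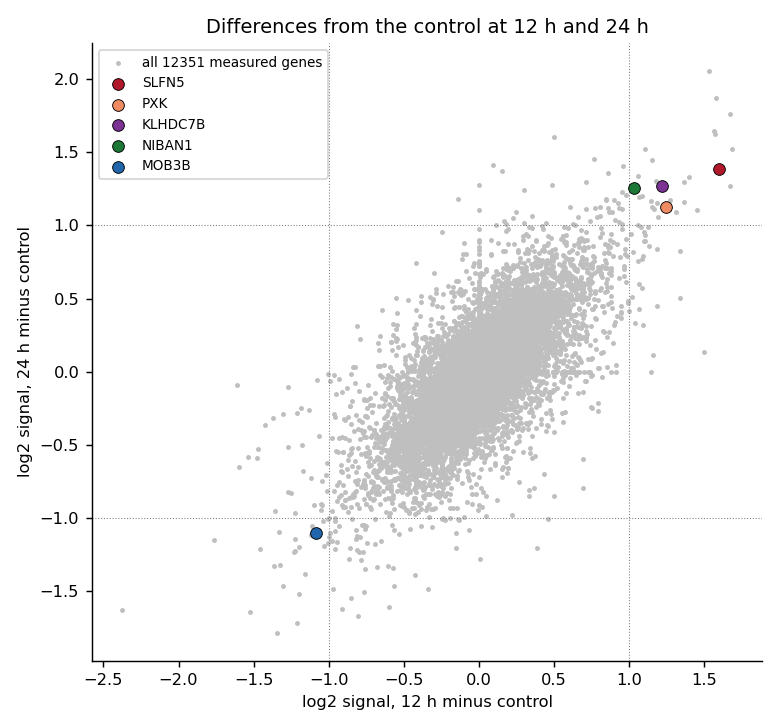
Log2 signal difference from the control at 12 h (horizontal) and at 24 h (vertical) for 12351 measured genes (grey), with the 5 genes in colour and dotted lines at 2-fold. SLFN5, PXK, KLHDC7B and NIBAN1 lie beyond 2-fold on the higher side of both axes, between 1.03 and 1.60 at 12 h and 1.12 and 1.39 at 24 h, and MOB3B at -1.09 and -1.10 lies on the lower side.

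Other measured genes of the Schlafen, KLHDC, Niban and MOB families, the families of SLFN5, KLHDC7B, NIBAN1 and MOB3B, numbered 16. None was 2-fold or more from the control at 12 h, against 0.883% of all measured genes, and SLFN13 was at 24 h, against 1.23%. In a group this small the 12 h count is near its share, while a single gene puts the 24 h count above its share. Nothing is read from either.

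In the Schlafen family 5 of 7 genes were on the arrays and 3 were measured. SLFN13, a tRNA-cleaving endonuclease, lay on the other side of the control from SLFN5. Its brightest probe set gave 951.2 in the control, 589.9 after 12 h and 421.9 after 24 h, differences of -0.69 and -1.17. A second SLFN13 probe set gave 425.6, 320.1 and 326.9, differences of -0.41 and -0.38, so the direction was shared and the 2-fold size was not. SLFN12, at 548.7, 581.3 and 501.9, was at 0.08 and -0.13. SLFN11, which sensitises cells to DNA-damaging drugs, had a probe set below the floor on all arrays.

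Interferon-induced genes, the setting in which SLFN5 is best known, were measured for 34 of 36 genes on the arrays, and none was 2-fold or more in either direction at either time. With 0.883% and 1.23% of all measured genes at that size, a count of 0 is near the background, here and for the sorting nexin, Na,K-ATPase and Hippo lists. Their median was 0.13 at 12 h with 26 higher and 8 lower, and 0.14 at 24 h with 20 higher and 14 lower, where the median of all measured genes was 0.00 at each time. BST2, a tether of budding virus particles, was at 0.55 and 0.63, and RSAD2, the antiviral enzyme viperin, at 0.68 and 0.23. IFITM1, an entry inhibitor, was at -0.54 and -0.72, and GBP1, a guanylate-binding protein, at -0.57 and -0.44. The largest mean differences in the list thus ran in both directions, and none reached the size of SLFN5. Control signals in the list ran from 278.6 units for RSAD2 to 12941 for IFI6, with IFIT1 at 11452 and MX1 at 10963. SLFN5 was at 180.2 there. The part of these control levels in the small differences was not tested.

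Sorting nexins, which share the PX domain with PXK, were measured for 27 of 30 genes, with none 2-fold or more at either time and medians of 0.04 and 0.09, which turned to -0.01 and -0.05 as the median over probe sets and to -0.07 and -0.11 with transcript-specific probe sets. SNX17, which recycles membrane receptors, was at 0.53 and 0.41. SNX16, SNX22 and SNX33 were the lowest of those named, at -0.50 and -0.39, -0.40 and -0.48, and -0.24 and -0.59. Of 10 Na,K-ATPase subunit and regulator genes on the arrays 5 were measured, and none was 2-fold or more. Their medians were -0.05 and -0.12, but -0.45 at 12 h with transcript-specific probe sets and -0.36 at 24 h with the floor at the 25th percentile or no floor. The beta subunits that mouse PXK is known to bind were close to the control, ATP1B1 at -0.01 and 0.09 and ATP1B3 at -0.05 and 0.01. The regulators FXYD3 and FXYD5 were at 0.00 and -0.37 and at -0.06 and -0.12, and FXYD1 read below the floor at 12 h, at least 1.80-fold lower, and -0.35 at 24 h.

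Of 10 KLHDC genes 7 were measured, and KLHDC7B was the one at 2-fold. KLHDC1 was next at 0.57 and 0.52, from 118.1 units in the control, 174.8 after 12 h and 169.9 after 24 h. KLHDC2 and KLHDC3, substrate receptors of cullin ubiquitin ligases, were at 0.20 and 0.22 and at 0.18 and 0.17, and KLHDC8B was at 0.25 at both times. The KLHDC3 value came from an _x_at probe set. Its other probe set was at 0.29 and -0.07, so the direction at 24 h was not shared. KLHDC10 was at -0.20 and -0.01. KLHDC4 was at 0.15 and 0.08 by its brightest probe set, while 3 others above the floor were lower at both times, by -0.26 to -0.95 at 12 h.

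NIBAN2, the broadly expressed relative of NIBAN1, was at 0.25 at 12 h and -0.17 at 24 h, from 1323 units in the control, 1569 after 12 h and 1176 after 24 h. NIBAN3 was near the floor, with 66.1 in the control its only reading above it. Genes of the ATF4 arm of the stress response were measured for 30 of 30 listed genes and 29 were higher at each time, with a median of 0.76 at both. Of all 12351 measured genes, 6196 were higher at 12 h and 6022 at 24 h. Of the 30 listed genes, 8 were 2-fold or more higher at 12 h and 8 at 24 h, against 0.445% and 0.591% of all measured genes. GDF15, a stress-induced cytokine, was at 1.58 and 1.87 and DDIT3, the transcription factor CHOP, at 1.67 and 1.76, both above NIBAN1 at 1.03 and 1.26. CHAC1 was at 1.37 and 1.16, NUPR1 at 1.36 and 1.30, TRIB3, a pseudokinase, at 1.19 and 1.06, and ASNS, asparagine synthetase, at 1.09 and 1.20. The amino acid transporter SLC1A4 was at 1.13 and 0.99, the serine synthesis enzymes PSPH and PHGDH at 1.09 and 0.77 and at 0.87 and 1.09, and the tRNA synthetase WARS1 at 0.86 and 1.12. The list was drawn up with results of these arrays known and is no independent evidence of its direction.

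**Figure D3:**
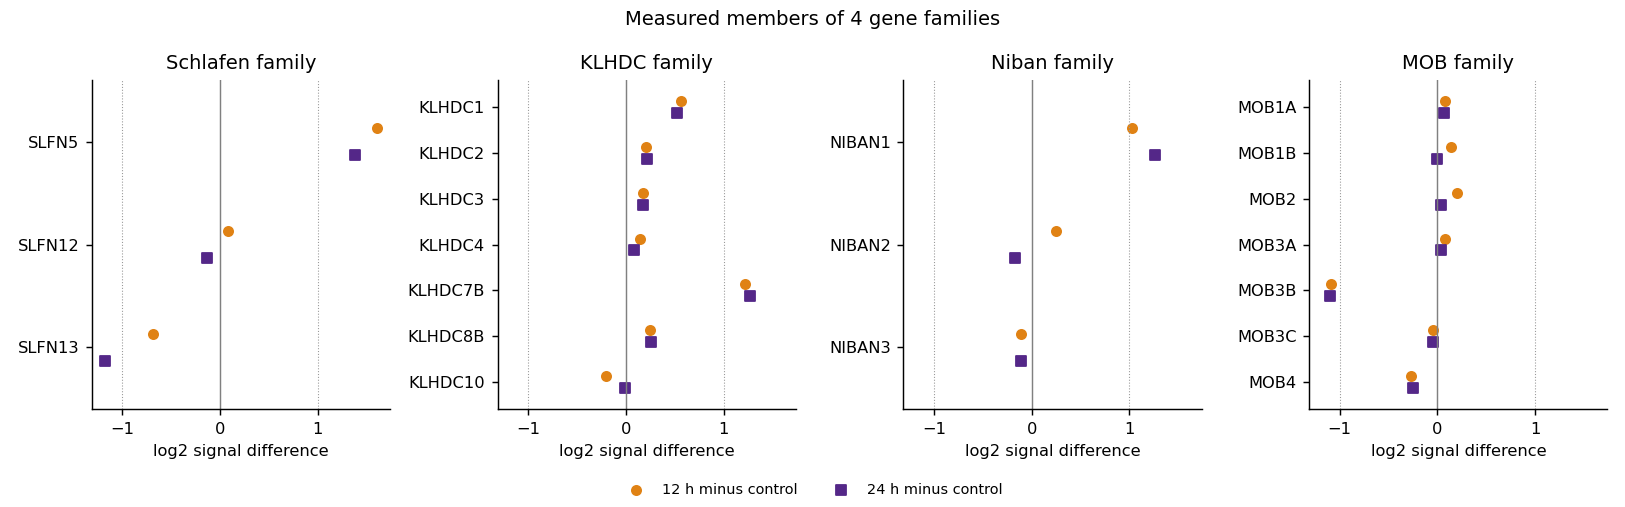
Log2 signal difference from the control at 12 h (circles) and 24 h (squares) for every measured gene of the Schlafen, KLHDC, Niban and MOB families, 1 row a gene, dotted lines at 2-fold. SLFN5, KLHDC7B, NIBAN1 and MOB3B stand outside the dotted lines at both times, and among their relatives SLFN13 does so at 24 h, at -1.17.

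All 7 MOB genes were measured. MOB3A and MOB3C, the closest relatives of MOB3B, were near the control, MOB3A with 296.5 in the control, 312.7 after 12 h and 303.8 after 24 h and MOB3C with 321.1, 311.9 and 312. Their differences were 0.08 and 0.04 for MOB3A and -0.04 and -0.04 for MOB3C. MOB1A and MOB1B, the activators of LATS and NDR kinases, were at 0.07 and 0.07 and at 0.14 and -0.00, though 3 other MOB1A probe sets were lower, by -0.10 to -0.63 at 12 h. MOB2, which competes with MOB1 for NDR kinases, was at 0.20 and 0.03, and MOB4, a subunit of the STRIPAK phosphatase complex, at -0.27 and -0.25. Of the 11 Hippo and NDR kinase genes none was 2-fold or more, with medians of -0.06 and -0.17. NF2, the upstream tumour suppressor merlin, was at -0.54 and -0.55, WWC1 at -0.49 and -0.37, LATS2 at -0.55 and -0.22 and the scaffold SAV1 at 0.37 and 0.33.

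Chromosomal neighbours were read as a further comparison that the choice of genes did not use. Taking the 3 nearest genes with a single-gene probe set on each side gave 30 neighbours, of which 21 were measured. None was 2-fold or more from the control at 12 h, against 0.883% of all measured genes. At 24 h 2 were, KCTD6 and SLFN13, against 1.23%, and SLFN13 is also counted among the family genes above. In a group of 21 the 12 h count is near its share, and 2 genes put the 24 h count above its share. Nothing is read from these counts. The medians were 0.05 at 12 h and -0.02 at 24 h.

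The genes directly on either side of PXK were close to the control. RPP14, a ribonuclease P subunit, was at -0.07 and 0.05 and PDHB, the pyruvate dehydrogenase beta subunit, at 0.11 and -0.04. KCTD6, beyond PDHB, gave 451.2 units in the control, 769.1 after 12 h and 1238.8 after 24 h, differences of 0.77 and 1.46. Its second probe set gave 79.6, 119.5 and 139.5, or 0.59 and 0.81. KCTD6 was thus higher at both times on both probe sets and further from the control at 24 h. That order held for 2 of the 3 PXK probe sets above the floor and not for the brightest. ABHD6, a lipid hydrolase beyond RPP14, was at 0.05 and 0.49 by its brightest probe set, and others above the floor gave 0.98 and 0.84 and 0.36 and 0.31, so its probe sets shared the higher side and differed in size.

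Near MOB3B, C9orf72 was measured and was higher where MOB3B was lower, with 435.5 in the control, 692.4 after 12 h and 818 after 24 h, differences of 0.67 and 0.91. Another C9orf72 probe set left the floor at 24 h alone, at 122.7. TEK, an endothelial receptor, was at -0.27 and -0.30, and IFNK, which overlaps the MOB3B gene, was below the floor on all arrays. By their brightest probe sets, the 6 neighbours of NIBAN1 lay between -0.20 and 0.51 at 12 h, TSEN15, a tRNA-splicing subunit, being the highest. At 24 h they lay between -0.23 and 0.44, and EDEM3, which acts in the disposal of misfolded glycoproteins, was at -0.11 and 0.38. By their brightest probe sets, C1orf21, TRMT1L, SWT1 and IVNS1ABP were within 0.23 of the control at both times. Further probe sets above the floor lay further off for some. For IVNS1ABP they were at -0.51 and -0.72 and at -0.52 and -0.61. For C1orf21 they were at -0.44 and -0.55 and at -0.86 and -0.31. For TRMT1L they were at 0.38 and 0.37 and at -0.01 and -0.00. Those of TSEN15 were at 0.47 and 0.14 and at 0.77 and 0.80. Those of EDEM3 were at -0.07 and 0.29 and at 0.24 and -0.01. All 6 neighbours of KLHDC7B were measured and lay between -0.13 and 0.61 at 12 h, with the choline kinase gene CHKB at 0.00 and -0.09 and its divergent transcript CHKB-DT at 0.40 and 0.76. SYCE3, the highest of them at 12 h, read 63.1, 96.2 and 52.1, near the floor. The mitochondrial copper chaperone gene SCO2 was at 0.17 and 0.18, TYMP, thymidine phosphorylase, at -0.11 and -0.02 and CIMAP1B at -0.13 and -0.47. Beside SLFN5, NLE1 was at 0.48 and 0.41.

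**Figure D4:**
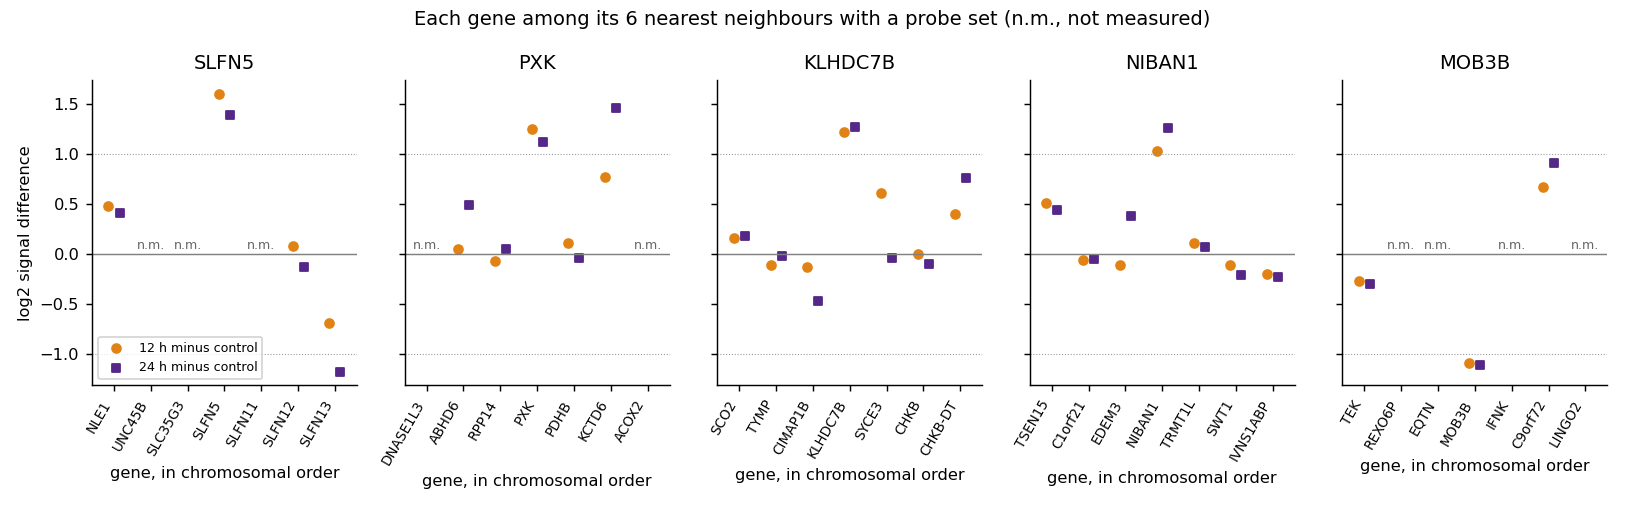
Log2 signal difference from the control at 12 h (circles) and 24 h (squares) for SLFN5, PXK, KLHDC7B, NIBAN1 and MOB3B at the middle of each panel and the 3 nearest genes with a probe set on each side, in chromosomal order (horizontal axis, not to scale). Of the 21 measured neighbours only SLFN13 at -1.17 and KCTD6 at 1.46 pass the dotted 2-fold lines, both at 24 h.

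For each of the 5 genes, the genes most like it were those with the smallest distance in the pair of differences from the control, among genes above the floor on all arrays whose control signal was within 2-fold of its own. The distance rests on 2 differences from 3 arrays and is a description. SLFN5 was nearest to PACSIN3, an endocytic adaptor, at a distance of 0.16, with 133.6 units in the control, 430.0 after 12 h and 383.5 after 24 h. LINC02806 and SPN, the leukocyte sialophorin CD43, followed at 0.41 and 0.43 among 2651 genes compared. PXK was nearest to TBC1D19 at 0.11, CHAC1, a glutathione-degrading enzyme, at 0.13 and RAB39B, a small GTPase, at 0.21.

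KLHDC7B was nearest to PCK2, the mitochondrial phosphoenolpyruvate carboxykinase, at 0.11, to NUPR1, a stress-induced chromatin protein, at 0.15 and to CHAC1 at 0.18. PCK2 gave 722.2 in the control, 1748.4 after 12 h and 1630.6 after 24 h. NIBAN1 was nearest to CALCB, a calcitonin-family peptide, and to PGD, a pentose phosphate enzyme, both at 0.08, and then to KLHDC7B at 0.19. MOB3B was nearest to HAS3, a hyaluronan synthase, at 0.05, to CCNE2, cyclin E2, at 0.10 and to GASK1B at 0.11, with HAS3 at 1842 in the control, 852.1 after 12 h and 886.5 after 24 h.

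The differences of the 5 genes were recomputed under 8 processing alternatives, shown in the plot of alternatives. All 78 values that could be had kept the direction of the value reported, and no transcript-specific value exists for NIBAN1. PXK varied least, between 1.25 and 1.27 at 12 h. Its brightest probe set is transcript-specific and the middle one of those above the floor. The median over probe sets and the transcript-specific setting therefore return the value reported. The PXK probe sets themselves lay between 0.67 and 1.45 at 12 h. SLFN5 spanned 0.56 to 1.63 at 12 h and 1.07 to 1.50 at 24 h, its low end coming from the median over probe sets.

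**Figure D5:**
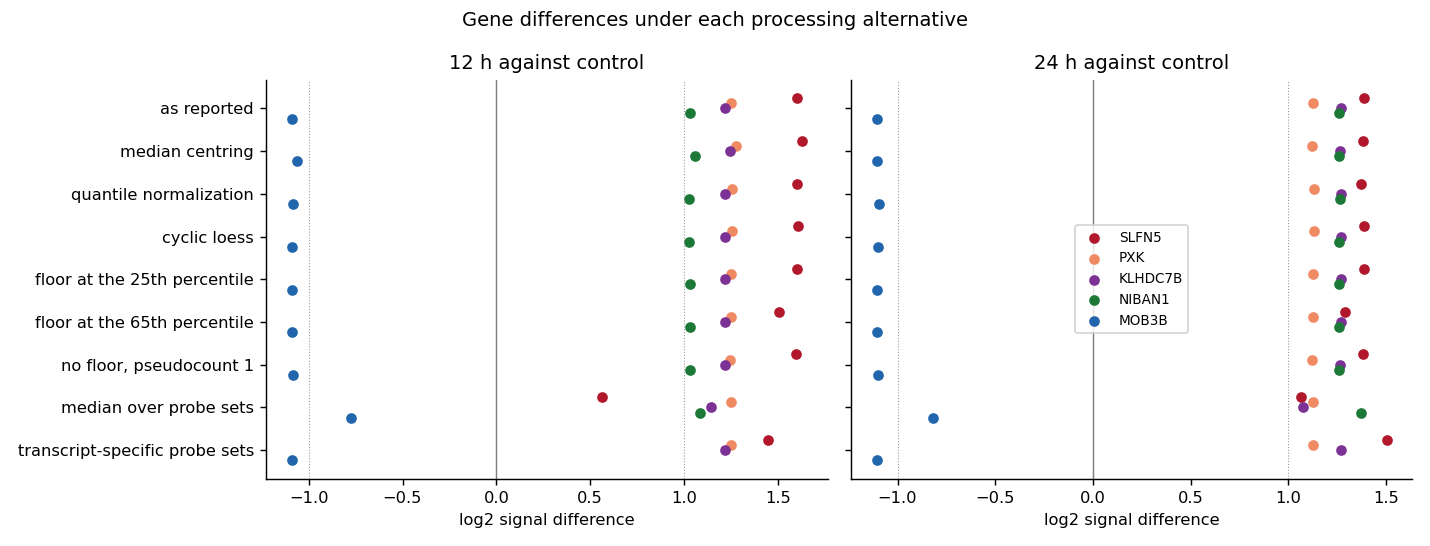
Log2 signal difference from the control at 12 h (left) and 24 h (right) for the 5 genes, one row for each processing setting, dotted lines at 2-fold. Under the median over probe sets SLFN5 at 12 h (0.56) and MOB3B at both times (-0.77 and -0.82) fall inside the 2-fold lines, and no point crosses 0.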

How the data were processed

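NCI-H1650 cells were measured on 3 arrays, 1 a condition. The deposited values are linear signal intensity made by the authors with MAS5, per the submitters' processing notes, whose version and settings are not given in the sources used here. Array intensity carries no read depth, and the number of arrays limits precision. Probe sets were named from the supplied platform annotation, which gave 1 gene for 41097 of 54675 probe sets, several for 1801 and none for 11777. Of the 41097, 41043 matched a RefSeq gene by Entrez ID.

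No scaling was added. A gene took its brightest single-gene probe set by mean signal, values were floored at 61.4 (the 50th percentile), and log2 differences of 2-fold or more were counted, with no test. Genes named are the 5 genes and all their probe sets. Of each of 12 lists they are every measured gene where 7 or fewer were measured, otherwise the 4 with the largest mean difference and any 2-fold gene. The measured genes among the 3 nearest neighbours each side and the 3 most similar genes complete them. Of the markers, EPCAM, NKX2-1, NAPSA, PTPRC and those below the floor, and the further probe sets given for genes outside the 5, were chosen after values were seen. So were IFI6, IFIT1 and MX1, given for their control signal. The 5 genes and the lists were chosen with earlier results of these data known. Some listed genes were not analysed here.

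Alternatives were median centring, quantile normalization, cyclic loess (limma 3.58.1), floors at the 25th and 65th percentile, no floor with a pseudocount of 1, the median over probe sets, and transcript-specific probe sets. The computation (Python 3.11.15, pandas 2.3.3, R 4.3.3) was tested on simulated data. Protein comparison was planned but not made.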

Additional observations from a re-analysis of the deposited data

How the results depend on the processing

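Under the 8 alternatives, 73 of 78 differences of the 5 genes from the control stayed within 0.183 of the reported value, the robust SD of 24 h against 12 h over measured genes, and all 78 kept their direction. The other 5 came from the median over probe sets, which gave SLFN5 0.56 at 12 h and 1.07 at 24 h, MOB3B -0.77 and -0.82, and KLHDC7B 1.08 at 24 h. The floor sets 3 SLFN5 probe sets at their bound in that median. The median over probe sets left 3 of the 5 genes at 2-fold or more at 12 h and 4 at 24 h. Of all 12365 genes under it, 49 were higher and 40 lower at that size at 12 h, and 58 and 63 at 24 h. Transcript-specific probe sets, which leave out NIBAN1 and the _x_at and _s_at probe sets, left 7 probe sets at 2-fold or more at 12 h instead of 10. At 24 h they left 7 instead of 11. Both drops come from the probe sets left out. Of all 9527 genes under that setting, 39 were higher and 48 lower at 12 h, and 64 and 70 at 24 h. These are counts of genes and not of probe sets. With the floor at the 25th percentile or no floor, 13 probe sets were 2-fold or more at 12 h and 14 at 24 h. With the floor at the 65th percentile, 7 and 8 were. The shares over all probe sets under these floors are not given here. Counts over all genes, given below, rose and fell with the floor in the same way, so nothing is read from these numbers. For 24 h against 12 h, 1 probe set reached 2-fold with the floor at the 25th percentile and 1 with no floor, against 0 as reported. Over all genes that step was 2-fold higher for 715 and lower for 774 of 17855 with that floor. With no floor the counts were 1715 and 1753 of 19775, so nothing is read from the 1 probe set. For that step SLFN5 was at 0.06 with transcript-specific probe sets and PXK at 0.43 as the median over probe sets. Of 288 list medians, 266 stayed within 0.183. The floor decides how many genes count as 2-fold, with 55 higher and 54 lower of 12351 at 12 h as reported and 73 and 79 at 24 h. With the floor at the 25th percentile there were 718 and 813 of 17855 at 12 h and 748 and 894 at 24 h, at the 65th 26 and 18 of 10031 and 35 and 28, and with no floor 1622 and 1789 of 19775 and 1639 and 1877. Median centring gave 62 higher and 48 lower genes at 12 h, against 55 and 54. No paired analysis was possible because each group has 1 array, and for the same reason no array could be left out.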
